A study of Mus musculus with 140 samples.

Results

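Arterioles microdissected from mouse kidney 24 h after surgery were compared between mice with CLP sepsis and sham-operated mice. The 8 samples, taken as every arteriole count column whose label gives 24 h, were 4 of CLP and 4 of sham, each from a different mouse, out of 140 samples in the series. All mice were male wild-type C57BL6/OlaHsd. CLP, cecal ligation and puncture, ties off and perforates the cecum so that gut bacteria leak into the abdomen, and sham mice have the operation without that injury. The series also holds healthy mice, CLP and sham mice at 4 h and 72 h, and 4 further compartments of each mouse (glomeruli, peritubular capillaries, post-capillary venules and whole kidney). RNA was read by QuantSeq, which counts transcripts at their 3′ end, and values are counts-per-million (CPM) scaled by the trimmed mean of M-values.

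Renal arterioles are the small arteries that bring blood to the glomeruli and lead it away. Their wall is smooth muscle around an endothelial lining, and near the glomerulus some of the muscle cells make renin. The muscle sets glomerular pressure through vasoconstrictor and dilator signals, while the endothelium carries the receptors for leukocytes and the proteins that hold clotting in check. In sepsis bacterial products and cytokines act on both layers.

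The CLP libraries held 10460470, 13730438, 13499926 and 13493765 counts, against 6482979, 6875389, 8999064 and 10038665 in the sham libraries. Every CLP library was deeper than every sham library (exact permutation test, two-sided, p = 0.0286, the smallest that 4 against 4 allows, and 0.171 after Benjamini-Hochberg adjustment over 6 library measures). The number of genes with a count was 8106 ± 309 in CLP and 8282 ± 932 in sham (SD, n = 4 each; exact permutation p = 0.743). Sham replicate 4 stood apart, with 6972 genes, 10.3% of its counts from mitochondrial genes and 42985 CPM of mt-Nd2, a subunit of respiratory complex I, where the other 7 samples held 2902 to 18590.2 CPM. In arterioles of healthy and 4 h mice 11339 to 13758 genes had a count, against 6534 to 9621 in those of 24 h and 72 h. Of the 3380 genes that averaged 50 CPM or more over the 8 samples, 924 had no count in at least 1 of them, and 565 had none in some CLP samples but not in all. A zero in 1 library was therefore common even for well expressed genes, and intervals or floors on counts cover counting error only.

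The labelled vessel type was checked against its markers. The 20 smooth muscle genes summed to 34790 to 46232 CPM in CLP and 29605 to 52213 CPM in sham arterioles. Acta2, the actin of vascular smooth muscle, had 11207, 10664, 8656 and 9722 CPM in CLP arterioles, against 9615, 6721, 12872 and 8539 CPM in sham arterioles. Myh11, smooth muscle myosin heavy chain, had 6061, 6770.3, 4478 and 3546 CPM in CLP arterioles, against 5947, 4562, 6742 and 7342 CPM in sham arterioles. These levels overlapped in both genes, and Acta2 and Myh11 were among the most abundant transcripts of all 8 samples. The endothelial list of 15 genes summed to 5074 to 5818 CPM in CLP and 3701 to 6235 CPM in sham, led by Pecam1, an adhesion protein of the endothelial junction, at 3008 ± 354 CPM in CLP and 2463 ± 1014 CPM in sham arterioles. Ren1, renin, had 70.2, 6.57, 27.4 and 67.4 CPM in CLP arterioles, against 422, 38.2, 0 and 0.108 CPM in sham arterioles, and 1 sham sample had none counted.

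Of 12183 genes tested, 2 passed an adjusted p under 0.05 (0.0164% of those tested; edgeR quasi-likelihood test, Benjamini-Hochberg), and both fell in CLP arterioles. At an unadjusted p under 0.05 there were 775 genes with higher and 1115 with lower values in CLP, 6.36% and 9.15% of those tested. With the 8 samples fitted alone, 156 of 7571 genes tested lay under that threshold, both directions together. Rcn1 (ENSMUSG00000005973, chromosome 2, 105386291 to 105399319 on the minus strand of GRCm38), which encodes reticulocalbin-1, a calcium-binding protein of the endoplasmic reticulum, fell to 0, 0, 0 and 0 CPM in CLP arterioles, against 164, 35.4, 222 and 166 CPM in sham arterioles. No CLP library held a read of it, and the groups did not overlap. Against a floor of 3 counts per library, averaged over the CLP samples, the level was at least 721-fold lower in CLP (adjusted p = 2.76e-05). In the other arteriole groups Rcn1 was counted in all 4 samples of each, between 0.474 CPM in CLP at 4 h and 291 CPM in healthy mice.

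Nat8f1 (ENSMUSG00000057103, chromosome 6, 85910154 to 85915687 on the minus strand of GRCm38), a member of the N-acetyltransferase 8 family that is strongly expressed in the kidney, fell to 0, 0, 0.0664 and 0 CPM in CLP arterioles, against 235, 25.1, 145 and 116 CPM in sham arterioles. Its CLP counts summed to 1 read, against 4439 reads in sham, and the ratio of sham to CLP was 7507 (exact binomial 95% interval 1347 to 296575, counting error only; adjusted p = 0.00606). Close copies of this gene lie in the same cluster, so reads may have been divided among them. Both calls were lost when the 8 samples were fitted alone, without the spread shared from the other 20 arteriole samples (adjusted p = 0.0685 for Rcn1 and 0.139 for Nat8f1). That of Nat8f1 was also lost with the 16 samples of 24 h and 72 h (edgeR, adjusted p = 0.411). It was lost with the replicate number as a block (0.0624) and without CLP replicate 2 (0.0671) as well.

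**Figure D1:**
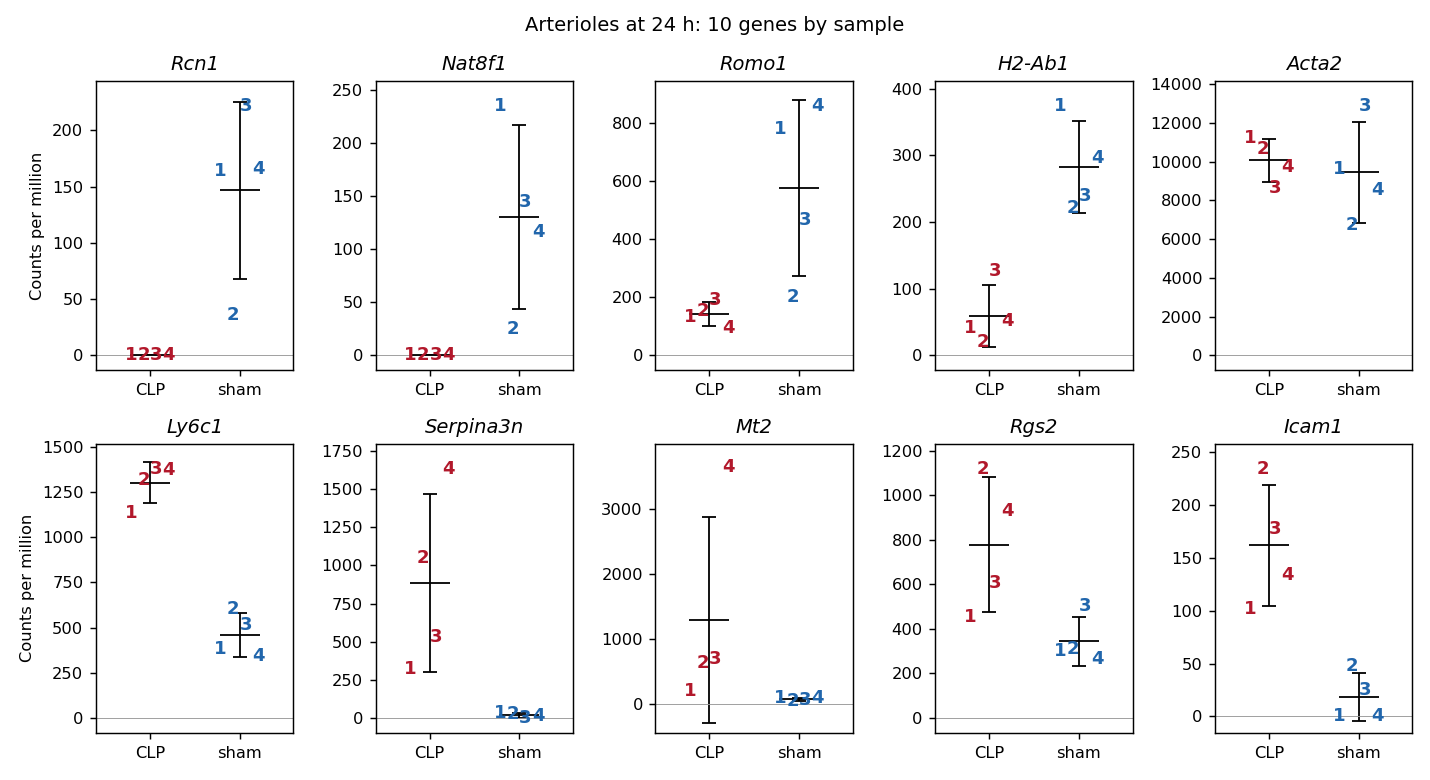
Level of 10 genes in CPM (vertical axes, linear) in each arteriole sample at 24 h, CLP in red on the left and sham in blue on the right; digits are the replicate numbers, and black bars the mean and SD of 4 mice. Rcn1 and Nat8f1 lie at or next to 0 in CLP, Ly6c1 holds 1136 to 1380 CPM in CLP and 344 to 603 CPM in sham, and Acta2 overlaps between the groups.

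Genes of the proximal tubule, the reabsorbing segment that surrounds the vessels, had lower levels in the CLP samples alongside Nat8f1. The 18 tubule markers summed to 4868, 377, 4783 and 677 CPM in CLP, against 14341, 5183, 5136 and 9298 CPM in sham, which did not overlap. Of these 18, 16 had a negative and 2 a positive log2 fold change, with a median of -1.74, and 0 passed the test. Over all 11846 tested genes that had a count in the 8 samples, 5645 were positive and 6201 negative, with a median of -0.09. Kap, whose protein is made by proximal tubule cells under androgen control, had 1739, 50.7, 833 and 185 CPM in CLP arterioles, against 4421, 1514, 2358 and 2017 CPM in sham arterioles; its CLP replicate 1 lay within the sham range (log2 fold change -1.88 ± 0.80, adjusted p = 0.233). Slc34a1, the phosphate transporter of its brush border, had 141 ± 171 CPM in CLP and 739 ± 422 CPM in sham arterioles. Gpx3, the secreted glutathione peroxidase made there, had 1125 ± 1108 CPM in CLP and 3184 ± 1977 CPM in sham arterioles. Folr1, a folate receptor, had 0, 0, 0 and 0 CPM in CLP arterioles, against 153, 2.83, 4.79 and 95.1 CPM in sham arterioles, at least 314-fold lower (adjusted p = 0.0608). The part of tubule RNA in the difference of Nat8f1 was not tested. In bulk tissue fewer cells of a type and less RNA per cell cannot be told apart.

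A further 20 genes had no count in any CLP library and at least 1 in every sham library, beside Rcn1 and Folr1, and 19 genes showed the opposite pattern, out of 34255 in the table. Odc1, ornithine decarboxylase, the first enzyme of polyamine synthesis, had 0, 0, 0 and 0 CPM in CLP arterioles, against 165, 20.4, 65.8 and 105 CPM in sham arterioles, at least 438-fold lower in CLP (adjusted p = 0.0608). Dctn1, a subunit of the dynactin motor complex, had 97.7, 2.53, 72.4 and 79.5 CPM in CLP arterioles, against 0, 0, 0 and 0 CPM in sham arterioles, at least 183-fold higher in CLP (adjusted p = 0.0608). Hp, haptoglobin, the plasma scavenger of free haemoglobin, had 235, 38.1, 10.2 and 159 CPM in CLP arterioles, against 0, 0, 0 and 0 CPM in sham arterioles, at least 321-fold higher (adjusted p = 0.183). Each of these 3 separated the groups and none passed the test.

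Among the 2935 genes counted in all 8 samples, none passed the edgeR test. When only these were fitted, 93 had an unadjusted p under 0.05, a share below the 0.05 expected without any effect. All CLP values lay above all sham values in 59 of the 2935 (2.01%) and below in 48 (1.64%), 3.65% together. Labels drawn at random separate 4 against 4 values without ties with a probability of 0.0286. The share was 2.22% over all genes tested, where zeros in both groups prevent separation. The 10 with higher and the 10 with lower CLP values that had the smallest unadjusted p are described next as values.

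Ly6c1 (ENSMUSG00000079018, chromosome 15, 75044018 to 75048830 on the minus strand of GRCm38), which encodes a surface protein anchored in the membrane of mouse endothelial cells and some leukocytes, had 1136, 1317, 1380.2 and 1372 CPM in CLP arterioles, against 379.7, 603, 514 and 344 CPM in sham arterioles. The CLP samples lay within a narrow band above every sham sample (log2 fold change 1.4997 ± 0.35, adjusted p = 0.0608). Reads of the nearly identical Ly6c2 may be counted with it. In healthy arterioles Ly6c1 averaged 1459 ± 566 CPM. It was lower in sham arterioles at 24 h than in these (log2 fold change of sham minus healthy -1.66, adjusted p = 0.0196). Sham libraries at 24 h held 6972 to 9145 detected genes and healthy ones 11339 to 12516, and the part of this in the difference was not tested.

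Serpina3n (ENSMUSG00000021091, chromosome 12, 104406729 to 104414329 on the plus strand of GRCm38), a secreted serine protease inhibitor of the acute phase, had 323, 1047, 533 and 1634 CPM in CLP arterioles, against 33.5, 24.1, 0.499 and 11.03 CPM in sham arterioles. Every CLP sample exceeded every sham sample by several fold (log2 fold change 5.68 ± 1.73, adjusted p = 0.183). Serpina3n belongs to a cluster of similar genes in the mouse, which could share reads.

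Mt1 and Mt2 encode metallothioneins, small proteins that bind zinc and copper; their transcription is known to respond to zinc through the factor MTF1 at metal response elements, and also to glucocorticoids. The promoters of both are shown because the pair had the largest summed level among the metal-handling genes. The windows run from 250 bases before to 50 bases after the RefSeq start (GRCm38.p6, plus strand, chr8:94178839-94179138 for Mt1 and chr8:94172368-94172667 for Mt2), and capitals mark matches on either strand to the element's core letters TGCACNC or TGCGCNC.
Mt1: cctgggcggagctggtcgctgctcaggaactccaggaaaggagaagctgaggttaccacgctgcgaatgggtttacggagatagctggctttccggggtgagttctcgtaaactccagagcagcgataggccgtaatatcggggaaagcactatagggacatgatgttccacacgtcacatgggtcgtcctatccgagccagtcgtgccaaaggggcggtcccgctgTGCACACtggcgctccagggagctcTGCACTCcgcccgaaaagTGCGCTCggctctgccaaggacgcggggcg
Mt2: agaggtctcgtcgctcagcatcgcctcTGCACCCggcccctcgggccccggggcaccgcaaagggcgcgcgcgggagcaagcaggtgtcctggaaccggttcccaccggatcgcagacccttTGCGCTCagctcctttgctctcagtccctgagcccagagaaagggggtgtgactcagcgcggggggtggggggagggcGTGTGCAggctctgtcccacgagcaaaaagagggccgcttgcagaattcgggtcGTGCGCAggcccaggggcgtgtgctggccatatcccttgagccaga
The Mt1 window held 3 matches, 1 before and 2 after the RefSeq start. The Mt2 window held 4, with 3 before and 1 after its start, and no matches overlapped. Of 32851 promoter windows of this length, 25.7% held at least 1 match, 1.97% held 3 or more and 0.517% held 4 or more; a match describes letters and is not evidence of binding.

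Mt2 had 209.7, 632, 699 and 3631 CPM in CLP arterioles, against 93.3, 51.7, 61.9 and 102 CPM in sham arterioles, with every CLP sample above every sham sample (log2 fold change 4.07 ± 1.43, adjusted p = 0.183). Mt1 had 323, 609, 594 and 2802 CPM in CLP arterioles, against 125, 76.8, 97.2 and 533 CPM in sham arterioles; CLP replicate 1 lay below sham replicate 4 (log2 fold change 2.38 ± 0.90, adjusted p = 0.183). CLP replicate 4 was the highest sample of both genes. It was also the highest of Hspb1, a small heat shock protein of muscle, which had 411, 954, 595 and 4088 CPM in CLP arterioles, against 147, 167, 762.2 and 419 CPM in sham arterioles. The other genes of the metal list that had a count numbered 5, among them Slc30a1, the zinc exporter of the plasma membrane, at 6.10 ± 8.45 CPM in CLP and 22.2 ± 25.6 CPM in sham arterioles, and Mtf1 at 25.7 ± 40.5 CPM in CLP and 53.6 ± 51.5 CPM in sham arterioles.

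Rgs2, which shortens the signal of vasoconstrictor receptors coupled to Gq, had 456, 1120.2, 605 and 932 CPM in CLP arterioles, against 300.1, 308, 505 and 264 CPM in sham arterioles; CLP replicate 1 lay below sham replicate 3 (log2 fold change 1.18 ± 0.44, adjusted p = 0.183). Sun2, which links the nuclear envelope to the cytoskeleton, had 828, 782, 299 and 1237 CPM in CLP arterioles, against 222, 264, 363 and 134 CPM in sham arterioles, where CLP replicate 3 lay below sham replicate 3 (1.68 ± 0.48 on the log2 scale). Arpc1b, a subunit of the actin-branching Arp2/3 complex, had 888, 687, 1099 and 1640.1 CPM in CLP arterioles, against 611, 728, 516 and 227 CPM in sham arterioles, with CLP replicate 2 below sham replicate 2 (1.05 ± 0.41). Afdn, afadin, which ties adherens junctions to actin, had 28.6, 283, 192 and 109.9 CPM in CLP arterioles, against 20.7, 8.03, 23.8 and 42.7 CPM in sham arterioles, and only CLP replicate 1 fell within the sham range (2.69 ± 1.08). Litaf, an endosomal membrane protein first found as a factor induced by lipopolysaccharide, had 343, 46.6, 93.1 and 71.8 CPM in CLP arterioles, against 1.53, 10.4, 2.40 and 0.324 CPM in sham arterioles, with no overlap between the groups (5.24 ± 1.74). Dnajc5, a co-chaperone of secretory vesicles, had 188, 236, 122 and 102 CPM in CLP arterioles, against 79.8, 6.33, 4.59 and 2.81 CPM in sham arterioles, also with no overlap (2.79 ± 1.02). The adjusted p of these 6 genes was 0.183.

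Among the 10 genes with lower CLP values, Romo1 (ENSMUSG00000067847, chromosome 2, 156144039 to 156145797 on the plus strand of GRCm38), a small protein of the inner mitochondrial membrane, had 133, 151, 191 and 92.996 CPM in CLP arterioles, against 781, 199.5, 465 and 859 CPM in sham arterioles. All 4 CLP samples lay below the lowest sham sample (log2 fold change -2.02 ± 0.497, adjusted p = 0.11). Afg3l1, a subunit of a mitochondrial protease in the mouse, had 0.406, 2.41, 0.398 and 13.5 CPM in CLP arterioles, against 81.0, 32.5, 79.9 and 209 CPM in sham arterioles, again with no overlap (-4.59 ± 1.56). The 24 measured respiratory chain genes included 19 with negative and 5 with positive log2 fold changes, a median of -0.51, and 0 that passed the test. Their summed level was 5702 ± 1074 CPM in CLP and 7558 ± 1206 CPM in sham. Of the proximal tubule list, whose genes come from cells rich in mitochondria, the summed level was also lower in CLP, as given above, and its part in these values was not tested.

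H2-Ab1, the beta chain of the class II antigen-presenting molecule I-A, had 40.5, 19.5, 126 and 51.0 CPM in CLP arterioles, against 374, 221, 239 and 296 CPM in sham arterioles, with no overlap (log2 fold change -2.25 ± 0.85, adjusted p = 0.183). Its partner chain H2-Aa had 112, 104, 112 and 65.9 CPM in CLP arterioles, against 387, 205, 189 and 398 CPM in sham arterioles, likewise with every CLP sample below every sham sample (-1.59 ± 0.69, adjusted p = 0.201). H2-Eb1, the chain of a second class II molecule, had 156, 10.97, 169 and 22.6 CPM in CLP arterioles, against 931, 412, 109.6 and 636 CPM in sham arterioles, where CLP replicates 1 and 3 lay above sham replicate 3 (-2.54 ± 1.24, adjusted p = 0.336). H2-Aa and H2-Eb1 were named after their values were seen. They belong to a list of 7 class II genes, also written after the values were seen, of which 6 were negative, 1 was positive and 0 passed the test. In 2 all CLP samples lay below all sham samples, beside 1.1% of genes tested and 1.64% of those counted in all 8 samples. Cd74, the invariant chain that escorts class II molecules, had 70.8, 0, 117 and 0 CPM in CLP arterioles, against 50.9, 94.0, 90.0 and 288 CPM in sham arterioles, which overlapped (adjusted p = 0.985). The positive member was H2-DMb1, a chain of the molecule that loads class II peptides, which was counted in 2 CLP samples and 1 sham sample. Class II molecules are carried by macrophages, dendritic cells and B cells, and the 13 macrophage and monocyte markers summed to 108 to 353 CPM in CLP and 182 to 690 CPM in sham, which overlapped. The 11 lymphocyte markers had no count in any CLP sample and summed to 12.8 to 54.9 CPM in sham. Of these 11, 6 also had no count in any sham sample, and 3 were tested. Over all 34255 genes, 21240 had no count in any CLP sample and 21236 none in any sham sample. The part of macrophages, dendritic cells and lymphocytes in the class II levels was not tested.

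Lamp1, a glycoprotein of the lysosome membrane, had 321, 488, 203 and 538 CPM in CLP arterioles, against 1066, 448, 577 and 1153 CPM in sham arterioles, where CLP replicates 2 and 4 lay above sham replicate 2 (-1.07 ± 0.40). Mlec, a sugar-binding protein of the endoplasmic reticulum, had 0.0812, 28.9, 0.133 and 4.005 CPM in CLP arterioles, against 105, 12.9, 53.7 and 274 CPM in sham arterioles, where CLP replicate 2 lay above sham replicate 2 (-3.75 ± 1.35). Ptma, prothymosin alpha, an acidic nuclear protein, had 73.4, 204, 78.7 and 116 CPM in CLP arterioles, against 325, 232, 164 and 1207 CPM in sham arterioles, with CLP replicate 2 above sham replicate 3 (-2.03 ± 0.73). Usp20, which removes ubiquitin from proteins, had 48.3, 53.1, 119 and 71.7 CPM in CLP arterioles, against 537, 201, 50.3 and 906 CPM in sham arterioles, with 3 CLP samples above sham replicate 3 (-2.54 ± 0.86). In the remaining 3 genes the groups did not overlap. Ilrun, a regulator of inflammation and lipid levels, had 10.4, 79.5, 45.9 and 62.3 CPM in CLP arterioles, against 203, 147, 247 and 383 CPM in sham arterioles (-2.31 ± 0.84). Cbfa2t3, a transcriptional corepressor, had 226, 128, 166 and 179.9 CPM in CLP arterioles, against 469, 341, 424 and 713 CPM in sham arterioles (-1.48 ± 0.59). Eps8l2, an actin-regulating adaptor, had 0.0812, 0.422, 30.2 and 33.6 CPM in CLP arterioles, against 49.5, 121, 70.1 and 274 CPM in sham arterioles (-2.999 ± 1.19). The adjusted p of these 7 genes was 0.183.

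**Figure D2:**
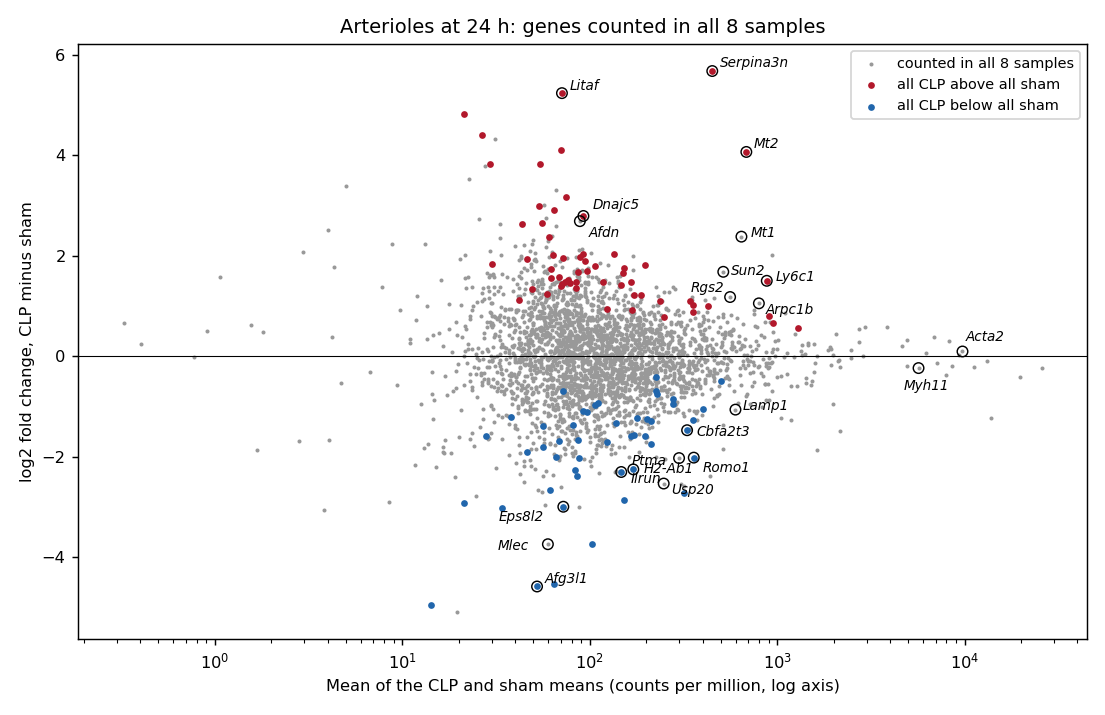
Log2 fold change of CLP minus sham (vertical axis) against the mean level (horizontal axis, CPM, log scale) of the 2935 genes counted in all 8 arteriole samples at 24 h; red points are genes with all CLP values above all sham values, blue points the opposite. The 20 genes described by name and the muscle genes Acta2 and Myh11 are labelled; Acta2 and Myh11 sit near 0, while Serpina3n, Litaf and Mt2 have the largest positive values among the labelled genes.

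Of the 35 gene lists of cell types and pathways, no member passed the test, beside 0.0164% of all genes, so the lists are described by their values. Many list medians turned sign or moved by over 1.5 times when 1 sample was left out. Contractile genes of smooth muscle showed no common direction: of 19 tested members 10 were positive and 9 negative, with a median of 0.09 (-0.065 over the 17 counted in all 8 samples). Tagln, transgelin, had 824 ± 126 CPM in CLP and 966 ± 589.6 CPM in sham arterioles. Cnn1, calponin, had 1510.1 ± 506 CPM in CLP and 1662 ± 488 CPM in sham arterioles. Smtn, smoothelin, a marker of contractile muscle, had 747, 686, 621 and 496 CPM in CLP arterioles, against 1132, 673, 1418 and 1439.7 CPM in sham arterioles. CLP replicates 1 and 2 lay above sham replicate 2. Rgs5, a regulator of G protein signals in mural cells, had 5478 ± 989.7 CPM in CLP and 4356 ± 2078 CPM in sham arterioles. Of 15 arterial endothelium genes 9 were positive, with a median of 0.12, and of 15 general endothelial genes 7 were, with a median of -0.06. Mgp, matrix Gla protein, an inhibitor of calcification made in arterial walls, had 5714, 6266, 6044 and 13118 CPM in CLP arterioles, against 6351, 6554, 6414 and 4535 CPM in sham arterioles, where CLP replicate 4 was the highest and sham replicate 4 the lowest. Of 12 fibroblast and adventitia genes 7 were positive, with a median of 0.13. Col1a1, a chain of type I collagen, had 1184, 1333, 1085 and 1024 CPM in CLP arterioles, against 963, 705, 614 and 359 CPM in sham arterioles. All CLP samples lay above all sham samples, beside 1.12% of genes tested and 2.01% of those counted in all 8 samples. Of 26 wall matrix genes 17 were positive, with a median of 0.43.

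The study's question concerns coagulation and inflammation, and few coagulation genes were well counted in arterioles. Of 21 procoagulant genes 11 had no count in any CLP sample and 11 none in any sham sample, and 10 were tested. These 10 included 7 positive values, with a median of 1.45 (1.64 with genes absent from a group set at their bound). Vwf, the platelet-binding protein of endothelium, had 186, 171, 339 and 264 CPM in CLP arterioles, against 303, 185, 175 and 419.6 CPM in sham arterioles, which overlapped. F2r, the thrombin receptor PAR1, had 61.6, 42.9, 74.1 and 71.5 CPM in CLP arterioles, against 15.0, 75.4, 37.1 and 0.973 CPM in sham arterioles; 3 sham samples were below every CLP sample and 1 above them all. F3, tissue factor, the starter of clotting, had 0, 0, 0.265 and 0.191 CPM in CLP arterioles, against 0, 26.7, 0 and 0 CPM in sham arterioles, near the limit of detection in all but 1 sample.

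Of 13 anticoagulant genes 9 were tested, and 7 of these were positive, with a median of 1.45 (1.18 with the gene absent from a group at its bound). Pros1, protein S, a cofactor of activated protein C, had 197, 89.2, 86.9 and 85.1 CPM in CLP arterioles, against 37.8, 26.02, 31.2 and 72.3 CPM in sham arterioles. It was the only member of 9 in which the groups did not overlap. All CLP lay above all sham in 1.12% of genes tested and 2.01% of those counted in all 8 samples. Thbd, thrombomodulin, which turns thrombin towards protein C, had 177, 107, 118 and 281 CPM in CLP arterioles, against 1.25, 77.6, 94.7 and 257 CPM in sham arterioles. Entpd1, which removes the platelet agonist ADP, had 47.3, 108, 201 and 176 CPM in CLP arterioles, against 29.6, 103, 15.1 and 21.2 CPM in sham arterioles. Both overlapped, with 1 sham sample within the CLP range. Anxa5, annexin A5, which shields phosphatidylserine, had 342 ± 204 CPM in CLP and 182 ± 76.7 CPM in sham arterioles. Gas6, a ligand related to protein S, had 95.9 ± 79.6 CPM in CLP and 133 ± 133 CPM in sham arterioles. Of the fibrinolysis genes 8 had a count, 4 positive and 4 negative, with a median of -0.28 that ran between -0.73 and 0.40 when 1 sample was left out. S100a10, which binds plasminogen at the cell surface together with annexin A2, had 107, 109, 101 and 141 CPM in CLP arterioles, against 13.1, 39.3, 101 and 0 CPM in sham arterioles, with CLP replicate 3 within 1 CPM of sham replicate 3 and no overlap. Anxa2 itself had 273 ± 168 CPM in CLP and 270.1 ± 71.1 CPM in sham arterioles.

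Of 14 leukocyte adhesion genes 10 were tested, 6 positive and 4 negative, with a median of 0.44. Icam1, the endothelial receptor for leukocyte integrins, had 101, 234, 177 and 134 CPM in CLP arterioles, against 0.695, 47.7, 24.7 and 0 CPM in sham arterioles. All CLP samples lay above all sham samples, and sham replicate 4 had no read (log2 fold change 3.14 ± 1.40, adjusted p = 0.227). Vcam1, which binds leukocytes through the integrin VLA-4, had 158, 270.0, 154 and 166 CPM in CLP arterioles, against 229, 179, 393 and 213 CPM in sham arterioles. Icam2, a constitutive receptor of endothelium, had 338, 244, 173 and 35.1 CPM in CLP arterioles, against 460.3, 332, 299 and 198 CPM in sham arterioles. Both overlapped. The endothelial selectins that slow leukocytes were sparse: Sele had 0, 38.8, 85.7 and 0 CPM in CLP arterioles, against 0, 0, 0 and 0 CPM in sham arterioles. Selp had 24.4, 17.4, 0 and 29.2 CPM in CLP arterioles, against 59.3, 0, 33.9 and 0 CPM in sham arterioles.

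Of 19 genes of the NF-kB response 11 were positive and 8 negative, with a median of 0.40 (-1.05 without CLP replicate 3). Nfkbia, the inhibitor of NF-kB that is itself an NF-kB target, had 801, 326, 1241 and 279.8 CPM in CLP arterioles, against 243, 635, 427 and 171 CPM in sham arterioles; 2 CLP samples exceeded every sham sample. Of 20 counted interferon response genes 8 were positive and 12 negative, with a median of -0.15. Of 14 genes of the IL-6 and STAT3 response 12 were positive, with a median of 0.68. Lrg1, a glycoprotein released in inflammation, had 27.7, 189, 169.5 and 256 CPM in CLP arterioles, against 2.08, 0, 61.7 and 0 CPM in sham arterioles, where CLP replicate 1 lay below sham replicate 3. Of 10 counted cytokine and chemokine genes 5 were positive, with a median of 0.12 (-0.45 over the 2 counted in all 8 samples), and 13 of the 28 listed had no count in any CLP sample and 17 none in any sham sample.

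Acute phase and complement genes numbered 15 tested, of which 12 were positive and 3 negative, with a median of 1.21; over the 5 of them counted in all 8 samples the median was 0.60. Saa3, serum amyloid A3, made outside the liver in inflammation, had 174, 388, 702 and 54.7 CPM in CLP arterioles, against 0, 0, 8.99 and 0.108 CPM in sham arterioles. No sham sample exceeded 8.99 CPM and every CLP sample exceeded 54 CPM (log2 fold change 7.17 ± 2.36, adjusted p = 0.183). C3, the central complement protein, had 92.5, 229, 385 and 69.5 CPM in CLP arterioles, against 59.6, 126, 33.4 and 0 CPM in sham arterioles, which overlapped. Serping1, the inhibitor of complement C1, had 915 ± 163 CPM in CLP and 605 ± 176 CPM in sham arterioles. Cp, ceruloplasmin, the copper carrier, had 236 ± 155 CPM in CLP and 102 ± 52.0 CPM in sham arterioles. Lcn2, lipocalin-2, an iron-withholding protein of injured tubules and of neutrophils, had 226, 189, 35.0 and 56.6 CPM in CLP arterioles, against 0, 0, 0 and 2.92 CPM in sham arterioles, with no overlap (log2 fold change 7.41 ± 2.47, adjusted p = 0.183). The neutrophil granule genes S100a9, at 181, 0, 7.70 and 153 CPM in CLP arterioles, against 0, 0, 0 and 0 CPM in sham arterioles, and S100a8, at 25.999, 0, 0.597 and 36.2 CPM in CLP arterioles, against 0, 0.113, 0 and 0 CPM in sham arterioles, were counted mainly in CLP. The 15 neutrophil markers, of which Lcn2 is 1, summed to 451, 261, 57.4 and 266 CPM in CLP, against 6.53, 0.113, 0 and 2.92 CPM in sham. Of the 15, 4 were tested, 5 had no count in any CLP sample and 12 none in any sham sample. Over all 34255 genes, 21240 had no count in any CLP sample and 21236 none in any sham sample. In CLP replicate 2, Lcn2 made up 189 of the 261 CPM. The part of neutrophils in these levels was not tested.

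**Figure D3:**
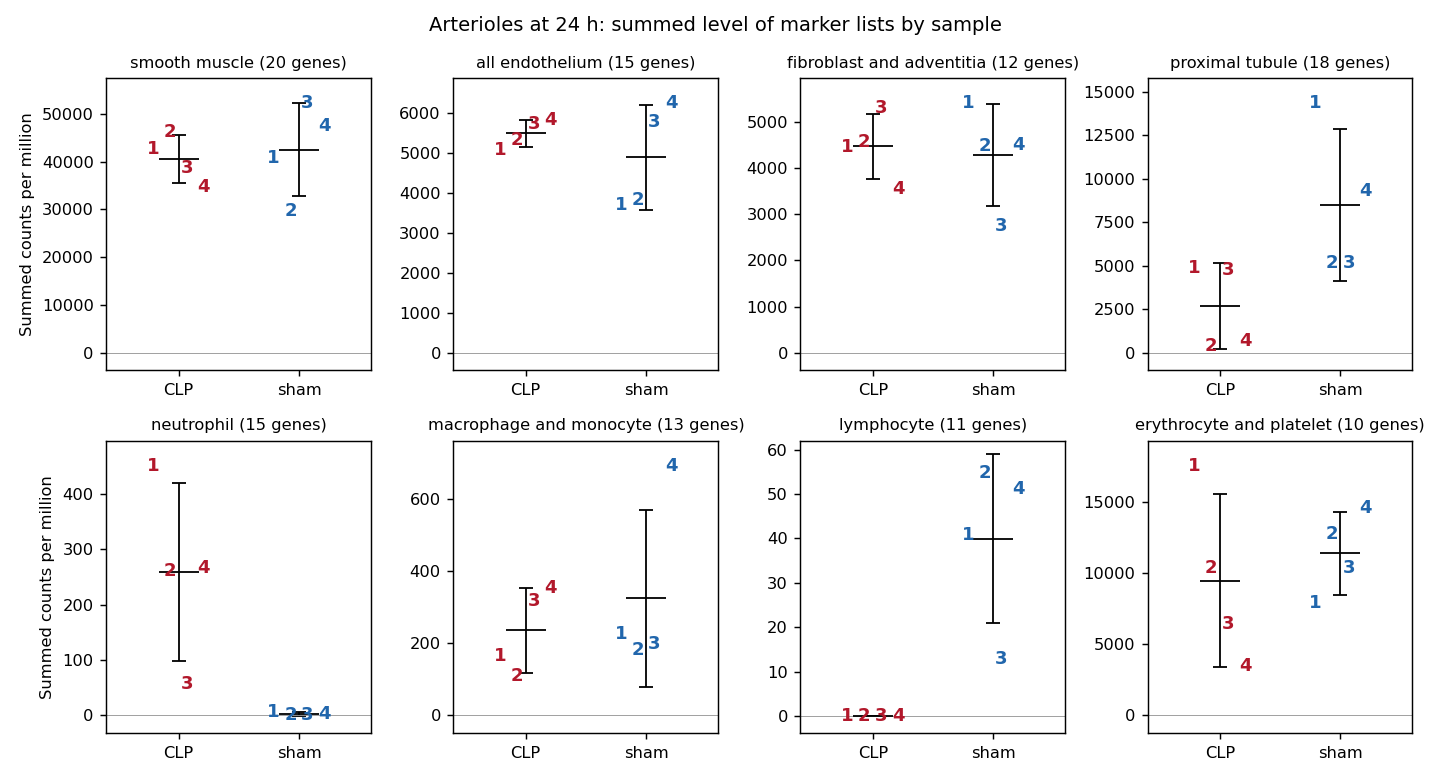
Summed level in CPM (vertical axes, linear) of 8 marker lists in each arteriole sample at 24 h, CLP in red on the left and sham in blue on the right; digits are replicate numbers and black bars the mean and SD of 4 mice. Proximal tubule sums lie below all sham sums in CLP, neutrophil sums lie above them, and lymphocyte sums are 0 in CLP. Of the 11 lymphocyte markers 6 are also at 0 in all sham samples. Of the 15 neutrophil markers 12 are at 0 in all sham samples and 5 in all CLP samples. The smooth muscle, endothelial and fibroblast sums overlap.

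Of 29 tested genes of vascular tone 13 were positive and 16 negative, with a median of -0.10. Nos3, the endothelial nitric oxide synthase, had 536, 394, 392 and 484 CPM in CLP arterioles, against 232, 236, 430.2 and 383 CPM in sham arterioles; 3 sham samples lay below every CLP sample. Ptgis, which makes the dilator prostacyclin, had 249.5, 803, 357 and 623 CPM in CLP arterioles, against 361, 369, 301 and 191 CPM in sham arterioles. Ece1, which releases the constrictor endothelin, had 188, 245, 133 and 268 CPM in CLP arterioles, against 33.8, 197, 47.6 and 0.649 CPM in sham arterioles. Both overlapped. Ace, the enzyme that forms angiotensin II, had 198, 110.0, 131 and 88.8 CPM in CLP arterioles, against 54.9, 47.8, 57.8 and 3.9999 CPM in sham arterioles. It was the 1 member of 29 in which all CLP samples lay above all sham samples. This held in 1.12% of genes tested and 2.01% of those counted in all 8 samples. Adra1a, the alpha-1A receptor for noradrenaline, had 22.9, 80.8, 247 and 9.92 CPM in CLP arterioles, against 234, 19.9, 289.9 and 239.8 CPM in sham arterioles; sham replicate 2 was low and CLP replicate 3 high, against the other samples of their groups.

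Endothelial barrier genes included 12 positive and 7 negative values of 19, with a median of 0.69 (0.63 with the gene absent from a group at its bound). Of 14 glycocalyx genes 9 were positive, with a median of 0.20. Sdc2, a heparan sulfate proteoglycan of the cell surface, had 30.1, 38.0, 30.1 and 6.61 CPM in CLP arterioles, against 70.9, 119, 80.9 and 151 CPM in sham arterioles. Every CLP sample lay below every sham sample, beside 1.1% of genes tested and 1.64% of those counted in all 8 samples. Hspg2, perlecan, the large proteoglycan of basement membrane, had 622 ± 206 CPM in CLP and 549 ± 239 CPM in sham arterioles.

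Stress hormone and stress genes were also examined. Of 13 glucocorticoid targets 11 were positive and 2 negative, with a median of 1.12 (1.02 with genes absent from a group at their bound). In 2 all CLP samples lay above all sham samples, beside 1.12% of genes tested and 2.01% of those counted in all 8 samples. These were Cdkn1a, a cell cycle inhibitor, at 247, 176, 225 and 238 CPM in CLP arterioles, against 51.0, 139.7, 146 and 131 CPM in sham arterioles, and Angptl4, a lipase inhibitor, at 101, 100.3, 136 and 219 CPM in CLP arterioles, against 83.1, 36.4, 6.99 and 0 CPM in sham arterioles. The 7 metal-handling genes had a median of 0.96, and the 16 clock genes a median of 0.71 with 9 positive (0.052 without CLP replicate 2 and 1.40 without sham replicate 3). Of 17 genes of heat shock and the unfolded protein response 11 were negative, with a median of -0.81 (0.06 over the 8 counted in all 8 samples). Hspa5, the main chaperone of the endoplasmic reticulum, had 239, 658, 769.7 and 517 CPM in CLP arterioles, against 1284, 504, 833 and 1797 CPM in sham arterioles, which overlapped. The 30 ribosomal protein genes included 22 positive values, with a median of 0.31, and the 8 mitochondrially encoded genes 3, with a median of -0.31. Immediate early genes had a median of 0.42 over 18 (0.25 with genes absent from a group at their bound), tubular injury genes 0.08 over 11 and cell cycle genes 0.29 over 8, with 4 of these positive. Markers of other kidney cells and blood had medians of -2.09 over 11 genes of the loop, distal tubule and collecting duct, -1.89 over 9 podocyte genes (-3.03 with absent genes at their bound), -0.59 over 9 of red cells and platelets and 1.51 over 12 of macrophages and monocytes (0.95 likewise). Over the members counted in all 8 samples the sign turned in 3 of these lists, to 0.74 for the 1 tubule gene (Umod), 0.31 for 2 podocyte genes and -0.59 for 2 macrophage genes.

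Arterioles of the same design at 4 h and 72 h placed the 24 h values in time. The CLP effect at 24 h differed from that at 4 h in 3 genes of 12183 (0.0246%), all lower at 24 h, and from that at 72 h in 188 (1.54%), 79 higher and 109 lower. Rcn1 averaged 31.6 ± 44.1 CPM in CLP and 82.5 ± 82.5 CPM in sham at 4 h, and 119 ± 79.9 CPM in CLP and 72.2 ± 47.5 CPM in sham at 72 h. Its effect at 24 h was lower than at either time (adjusted p = 0.00409 against 4 h and 0.000173 against 72 h). Nat8f1 also differed (0.019 and 0.0472), as did Folr1 (0.0195 and 0.0114). Most of these calls involve zeros: 173 of the 188 genes had no count in all 4 CLP or all 4 sham samples at 24 h, and 2 were counted in all 8. The count of 188 was 4 with limma and quality weights and 2 to 13 when 1 sample was left out. The libraries at 4 h also held more detected genes, and the part of this in the differences was not tested.

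Serpina3n averaged 454 ± 269.6 CPM in CLP and 10.4 ± 18.1 CPM in sham at 4 h, and 189.8 ± 129 CPM in CLP and 13.1 ± 15.3 CPM in sham at 72 h. The CLP mean was above the sham mean at each time and highest at 24 h. Mt2 averaged 26106 ± 10929.6 CPM in CLP and 2922 ± 1808 CPM in sham at 4 h, and 218 ± 70.9 CPM in CLP and 17.1 ± 33.2 CPM in sham at 72 h. Both groups had higher means at 4 h than at 24 h. Ly6c1 averaged 2030.2 ± 906 CPM in CLP and 1891 ± 361 CPM in sham at 4 h, and 677 ± 184 CPM in CLP and 553 ± 333 CPM in sham at 72 h. The difference between times passed the test in none of these 3 genes (adjusted p of 0.17 to 1).

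**Figure D4:**
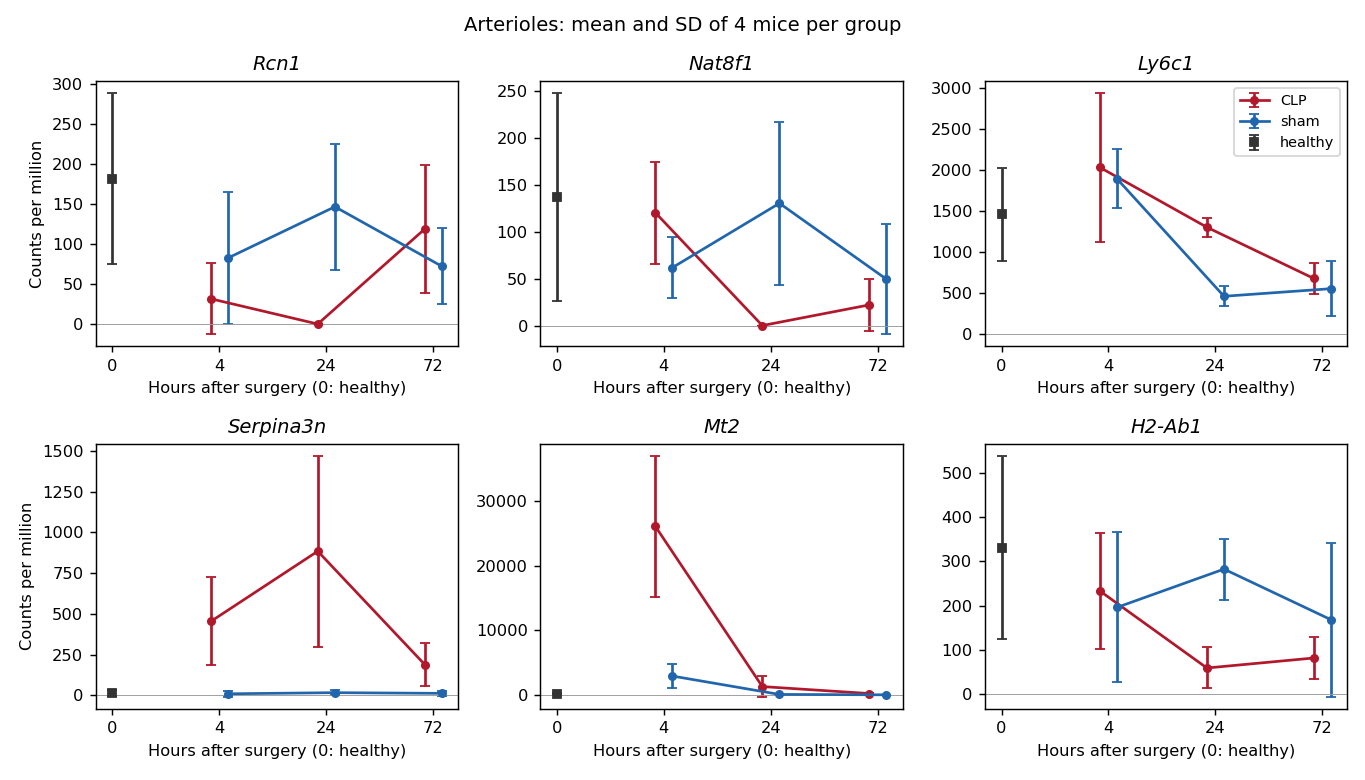
Mean level in CPM (vertical axes, linear) with SD of 4 mice per group for 6 genes in arterioles, by hours after surgery (horizontal axis, evenly spaced categories; 0 stands for healthy mice); red is CLP and blue sham. Rcn1 is at 0 in CLP at 24 h, while Mt2 is highest at 4 h in both groups.

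The same mice gave 4 other compartments. Rcn1 averaged 8.71 ± 0.699 CPM in CLP and 8.83 ± 1.61 CPM in sham whole kidney (log2 fold change -0.02, adjusted p = 0.983). It was counted in 4, 2 and 3 of the 4 CLP samples of glomeruli, peritubular capillaries and venules. Nat8f1 averaged 273 ± 126 CPM in CLP and 624 ± 88.9 CPM in sham whole kidney, where it fell by 1.19 on the log2 scale (adjusted p = 0.0109). Of the genes tested, 0.137% passed for CLP against sham in glomeruli, 0.051% in peritubular capillaries and 0.0813% in venules. Mt2 was among those of venules, where it rose to 485 ± 246 CPM in CLP, against 97.5 ± 24.6 CPM in sham (log2 fold change 2.32, adjusted p = 0.0301). The CLP effect on Nat8f1 was lower in arterioles than in glomeruli, peritubular capillaries and venules (adjusted p = 4.3e-18, 6.41e-17 and 1.17e-19). That difference also held for Folr1 and for Thnsl2, a threonine synthase-like enzyme, which had 0, 0, 0 and 0 CPM in CLP arterioles, against 29.2, 78.8, 34.6 and 205 CPM in sham arterioles. In all, 10 genes of 13635 (0.0733%) differed from glomeruli, 19 (0.139%) from capillaries and 16 (0.117%) from venules. Of these, 6, 7 and 9 had no count in any CLP arteriole sample, and Nat8f1 had 1 read in CLP arterioles. Among genes counted in all 32 microdissected samples none differed (edgeR, with 49, 89 and 54 at an unadjusted p under 0.05).

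Of the 10 arteriole genes with higher values, 6 passed the test in whole kidney and were higher there too, in a fit where 789 of 14936 genes passed (5.28%). Serpina3n averaged 58.5 ± 21.7 CPM in CLP and 2.85 ± 1.103 CPM in sham whole kidney (log2 fold change 4.36, adjusted p = 8.94e-06). Mt2 had 316 ± 176 CPM in CLP and 76.4 ± 9.02 CPM in sham whole kidney (2.05, adjusted p = 4.78e-06). Ly6c1 had 179 ± 35.2 CPM in CLP and 111 ± 12.4 CPM in sham whole kidney (0.69, adjusted p = 0.00343). Mt1, Arpc1b and Litaf were the others. Of the 10 with lower values, 2 passed there and were lower, H2-Ab1 (-1.15, adjusted p = 2.14e-06) and Mlec (-0.48, adjusted p = 0.00924). The mice are the same, so these values are a further readout of these animals and not an independent group. Sun2, Rgs2, Dnajc5 and Afdn did not pass in whole kidney, nor did Romo1, with log2 fold changes of -0.06, 0.13, 0.14, -0.06 and -0.22 there. The part of arteriole RNA in the whole kidney values was not tested.

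**Figure D5:**
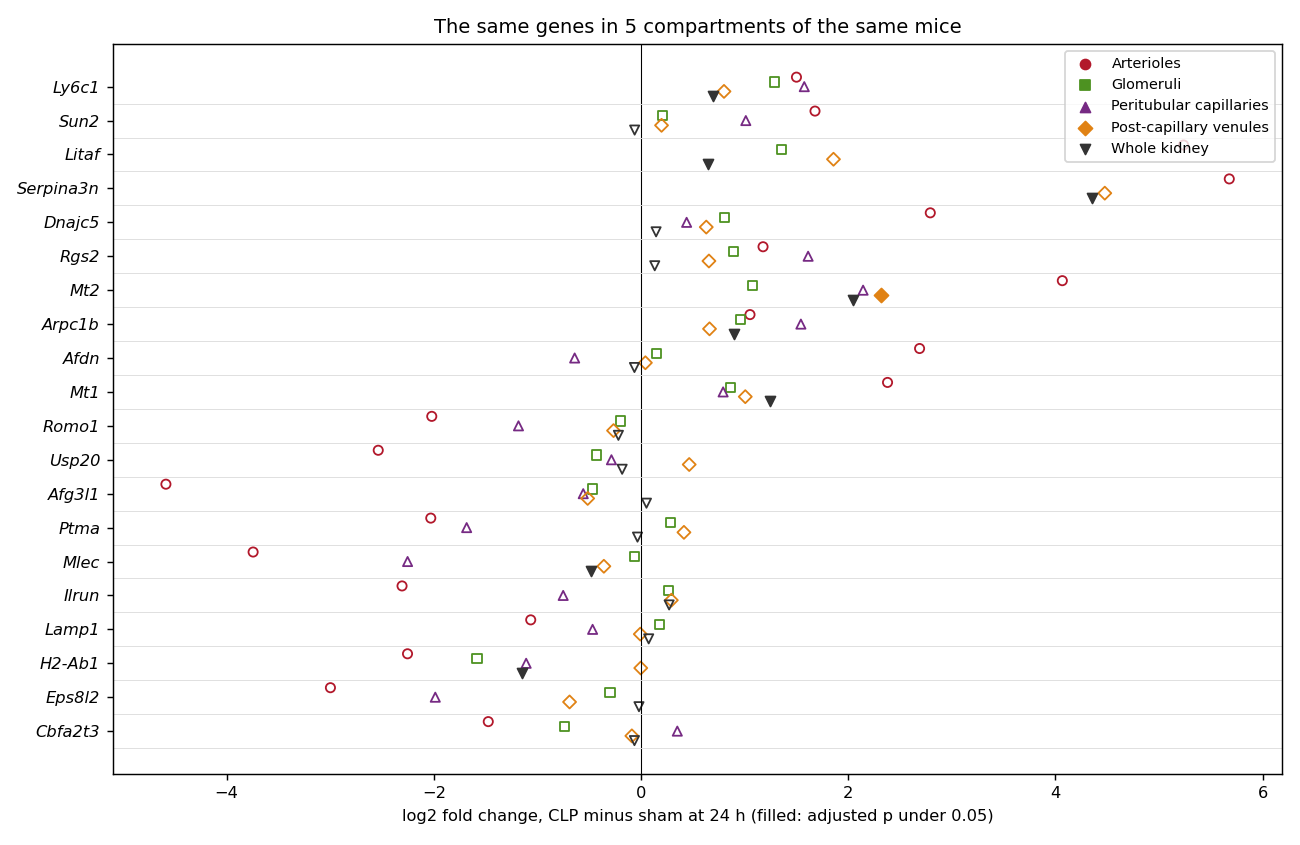
Log2 fold change of CLP minus sham at 24 h (horizontal axis) of the 20 genes counted in all 8 arteriole samples with the smallest p in each direction (vertical axis), in 5 compartments of the same 8 mice; filled symbols mark an adjusted p under 0.05, and a gene whose group averaged under 3 counts in a compartment has no symbol there. No arteriole symbol is filled, whereas 8 whole kidney symbols are. The biological coefficient of variation is the spread between samples of a group in the fit. It is 1.92 in arterioles, 1.94 in peritubular capillaries, 1.58 in venules, 1.40 in glomeruli and 0.241 in whole kidney.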

How the data were processed

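Counts of reads per gene were made by the authors from 3′ end libraries (Lexogen QuantSeq, per the labels' protocols) and deposited as 1 table of whole counts for 34255 genes; the tools listed in the submitters' processing notes are STAR 2.7, HTSeq 0.13, featureCounts, SAMtools 1.9, FastQC 0.11.8 and MultiQC 1.7. Those notes list 2 builds, GRCm39 and GRCm38.p6; the one used for alignment, and whether counting used strand, is not given in the sources used here. Gene positions are from GENCODE M21 (GRCm38), matched by gene ID, and promoter sequences from RefSeq. Reads shared by near-identical genes and by antisense partners cannot be assigned with certainty in 3′ counts. The table's hour row gives 4 h for healthy mice and the labels 0 h; the labels were used.

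From the deposited counts, CLP was tested against sham with edgeR 4.0.16 (R 4.3.3): TMM scaling, a filter by expression within groups, and the robust quasi-likelihood F test, two-sided, fitted over the 28 arteriole samples (7 groups of 4 mice) so that all groups share 1 estimate of the spread, with Benjamini-Hochberg adjustment over 12183 genes and a threshold of 0.05. The differences between times used the same fit, and those between compartments a fit of the 32 microdissected samples at 24 h with the mouse as a block. Library measures were compared by exact permutation tests (SciPy 1.17.1). A list median covers tested members with a count in at least 1 of the 8 samples, and none is given for lists with fewer than 5 such members. Medians over the members counted in all 8 samples have no such minimum and can rest on 1 or 2 genes. A gene absent from a group is bounded by a floor of 3 counts per library, on average 0.204 CPM in CLP and 0.345 CPM in sham. Alternatives were DESeq2 1.42.0, limma 3.58.1 with quality weights, other filters, other samples in the fit, a replicate block and leaving out each sample.

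Genes named are those called, the 10 higher and 10 lower of smallest p among genes counted in all 8 samples, the most abundant members of each list, well counted members of the coagulation, adhesion, muscle and vasoactive lists, and the leading genes of each difference test; others are said to be chosen after their values were seen. Odc1, Dctn1, Hp, F3, Sele and Selp were also chosen that way. The comparison, the genes and the lists were chosen with earlier results of these data known. Replicate numbers are the labels' biological replicates, and the mice of CLP and sham differ. Same-numbered CLP and sham samples did not deviate together (correlations of -0.034 to 0.0083 over 4 pairs), so the fit has no block.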

Additional observations from a re-analysis of the deposited data

Results flagged for a closer look

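Within a group of 4, 1 sample lay far from the other 3 in 22 of 156 groups examined over the genes with printed values. The rule flags about 1 in 20 groups by chance only where values follow a normal spread. CPM here are skewed and hold zeros, and 3 zeros beside 1 read are always flagged. The 22 can therefore not be set against that rate. CLP replicate 4 stood apart in Mt2 (3631 CPM), Mt1 (2802 CPM), Hspb1 (4088 CPM), Mgp (13120 CPM) and Afg3l1 (13.5 CPM). CLP replicate 1 stood apart in Litaf (343 CPM) and Pros1 (197 CPM), CLP replicate 2 in Vcam1 (270.0 CPM) and Mlec (28.9 CPM), and CLP replicate 3 in Nat8f1 (0.0664 CPM, a single read). Sham replicate 4 stood apart in Mt1 (533 CPM), Ptma (1207 CPM), Mgp (4535 CPM) and Lcn2 (2.92 CPM). Sham replicate 1 did so in Dnajc5 (79.8 CPM), Ren1 (422 CPM) and Cdkn1a (51.0 CPM). Sham replicate 2 did so in Entpd1 (103 CPM), S100a8 (0.113 CPM) and F3 (26.7 CPM), and sham replicate 3 in Saa3 (8.99 CPM) and Lrg1 (61.7 CPM).

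The CLP effect at 24 h differed from that at 4 h, with adjusted p from the edgeR quasi-likelihood test of the difference, in Rcn1 (0.00409), Nat8f1 (0.019) and Folr1 (0.0195). It differed from that at 72 h most clearly in Rcn1 (0.000173), Zfp316 and Folr1 (0.0114 each), Sh3gl2 (0.0115) and Tmem115 (0.0219). Zfp316 and Sh3gl2 had no count in any CLP sample at 24 h and 380 and 395 CPM in sham replicate 4. Tmem115, the 1 of these with a higher effect at 24 h, had 0.181 to 75.6 CPM in CLP and 0 to 0.278 CPM in sham.

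The effect in arterioles was lower than in glomeruli for Nat8f1 (4.3e-18), Thnsl2 (6.38e-09), Folr1 (5.93e-06), Pgm1 (4.02e-05), an enzyme of glycogen metabolism, and Cd300lg (0.0238), a receptor of capillary endothelium. It was lower than in peritubular capillaries for Nat8f1 (6.41e-17), Serpine2 (2.57e-13), a protease inhibitor also called nexin-1, Thnsl2 (7.88e-11) and Folr1 (4.98e-08), and higher for Hbb-bt (3.77e-22), a beta globin. It was lower than in venules for Nat8f1 (1.17e-19), Thnsl2 (1.15e-09), Folr1 (5.5e-08), Pgm1 (1.65e-05) and Spp2 (0.00749), a secreted phosphoprotein. Many of these calls involve zeros, and Nat8f1 had 1 read in CLP arterioles. Of the 10, 19 and 16 genes called against glomeruli, capillaries and venules, 6, 7 and 9 had no count in any CLP arteriole sample. Serpine2 and Hbb-bt themselves overlapped between CLP and sham arterioles, at 409 ± 397 CPM in CLP and 353 ± 132 CPM in sham for Serpine2 and 699 ± 609 CPM in CLP and 1028 ± 398 CPM in sham for Hbb-bt.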

How the results depend on the processing

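The 2 genes called for CLP against sham became 0 with the 8 samples fitted alone (156 at an unadjusted p under 0.05, edgeR), 1 with 16 samples of 24 h and 72 h, 1522 with DESeq2, 6 with no filter, 0 among genes counted in all 8 samples (93 at an unadjusted p under 0.05) and 53 with limma and quality weights; DESeq2 size factors in edgeR kept 2. Genes counted in all 8 samples and fitted in the 8 samples alone, an alternative added after the data were seen like every leave-out in the difference tests, gave 2 calls, Serpina3n and Mt2. Leaving out 1 sample gave 0 to 7 calls over both fits, with 7 without CLP replicate 1 or CLP replicate 4, 6 without sham replicate 2, 4 without CLP replicate 3 and 1 without CLP replicate 2 in the fit of 28 samples. Limma with quality weights moved the median log2 fold change of all genes to -0.46, against -0.03 in the edgeR fit. Rcn1 was called in 14 of 15 alternatives that could test it and Nat8f1 in 11 of 15, with adjusted p up to 0.0685 and 0.411. All 28 genes given with a log2 fold change or a call kept their direction in every alternative run. These genes were chosen from the same samples that the alternatives reuse, so a kept direction is no independent support. A fit of the 8 samples with the replicate number as a block called 17 genes, but same-numbered samples did not deviate together and the numbers were not taken to pair these mice.

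The difference between 24 h and 4 h had 3 calls, 11 with limma and quality weights and 1 to 6 with 1 sample left out; that between 24 h and 72 h had 188, then 4 and 2 to 13. Differences from other compartments, 10 for glomeruli, 19 for peritubular capillaries and 16 for venules, became 0, 0 and 0 among genes counted in all 32 samples (49, 89 and 54 at an unadjusted p under 0.05, edgeR) and 11 to 69, 39 to 113 and 23 to 88 with 1 mouse left out, most of all without CLP replicate 1. CLP minus sham in detected genes per sample was -177, -239 at a minimum of 5 counts and -393 after thinning each library to 6482979 counts, with exact permutation p of 0.743, 0.686 and 0.486.

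Members counted in all 8 samples numbered 1 for loop, distal and collecting duct. They numbered 2 for podocyte, macrophage and monocyte, procoagulant, cytokines and chemokines, and metallothioneins and zinc. With genes counted in all 8 samples, list medians of log2 fold change moved to 0.71 for loop, distal and collecting duct, 0.29 for podocyte, -0.62 for macrophage and monocyte, 0.36 for procoagulant, 0.88 for anticoagulant, -0.49 for cytokines and chemokines, 0.57 for acute phase and complement, 0.10 for wall matrix, 3.19 for metallothioneins and zinc, 0.031 for stress and unfolded protein and -0.12 for mitochondrial genome. With the 8 samples alone they moved to -0.24 for loop, distal and collecting duct, -0.44 for podocyte, -1.18 for macrophage and monocyte, 0.39 for procoagulant, 0.90 for anticoagulant, -0.46 for cytokines and chemokines, -0.49 for metallothioneins and zinc and 2.41 for cell cycle. Leaving out 1 sample gave -0.087 to 0.33 for all endothelium, -2.35 to -0.19 for podocyte, -1.27 to -0.46 for erythrocyte and platelet, 0.018 to 2.11 for macrophage and monocyte, 0.42 to 2.75 for procoagulant, -1.05 to 0.78 for NF-kB response, -0.48 to 1.01 for cytokines and chemokines, 0.22 to 1.37 for IL-6 and STAT3 response, 0.92 to 1.87 for acute phase and complement, 0.29 to 0.96 for endothelial barrier, 0.034 to 1.34 for endothelial glycocalyx, 0.17 to 0.57 for wall matrix, 0.16 to 0.96 for immediate early, 0.0029 to 2.22 for metallothioneins and zinc, -6.39 to 1.42 for cell cycle, -1.01 to 0 for stress and unfolded protein and -0.23 to 0.016 for mitochondrial genome. For the other lists, where each value stayed within 1 SD of the spread between samples, the ranges were 1.17 to 1.65 for anticoagulant, -0.23 to 0.53 for arterial endothelium, 0.052 to 1.40 for circadian clock, -0.73 to 0.40 for fibrinolysis, -0.057 to 0.29 for fibroblast and adventitia, 0.98 to 1.35 for glucocorticoid targets, -0.43 to 0.20 for interferon response, 0.02 to 0.70 for leukocyte adhesion, -2.25 to -1.59 for loop, distal and collecting duct, -2.51 to -1.26 for proximal tubule, -0.51 to -0.25 for respiratory chain, 0.16 to 0.50 for ribosomal protein, -0.11 to 0.25 for smooth muscle, -0.29 to 0.58 for tubular injury and -0.1 to 0.47 for vasoactive mediators and receptors. A value within that bound could still change sign. The range ran through 0 for arterial endothelium, fibrinolysis, fibroblast and adventitia, interferon response, smooth muscle, tubular injury, and vasoactive mediators and receptors. The leave-out fits of the arteriole samples reran the expression filter and tested 12839 to 12901 genes, against 12183 with all samples. The members behind a median could therefore differ along with the samples. The leave-out range for mitochondrial genome does not include its median of -0.31 with all samples. The cause of the shifts in list medians was not tested. Zeros in single libraries limit what the values of 1 gene can show.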

Other observations

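Of the 19 genes counted in every CLP and no sham sample, the most abundant beside Hp were Smarca5, a chromatin remodelling ATPase, at 81.4 ± 62.3 CPM in CLP, Mydgf, a secreted factor named for its release by myeloid cells, at 76.8 ± 99.7 CPM, and Galnt15, which starts mucin-type sugar chains, at 75.6 ± 113 CPM (SD, n = 4). Arrb2, beta-arrestin 2, which ends and redirects G protein-coupled receptor signals, had 57.7 ± 37.9 CPM in CLP, and Gpbar1, a receptor for bile acids, 30.8 ± 17.9 CPM. Of the 22 genes with the opposite pattern, Rom1, known as a photoreceptor membrane protein, had 124 ± 185 CPM in sham, Fam151a 90.7 ± 90.1 CPM and Rhcg, an ammonia transporter of the collecting duct, 50.3 ± 35.8 CPM. Ccr2, the receptor that draws monocytes from blood to tissue, had 10.1 ± 7.08 CPM in sham. All of these were chosen after their values were seen, and the adjusted p of each was 0.183 (edgeR quasi-likelihood test).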
